A study of Homo sapiens with 9 samples.

Results

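The alpha and beta tubulin genes were followed in Huh7 cells after siRNA-mediated loss of either large tumor suppressor kinase of the Hippo pathway. They were picked by their Entrez gene numbers, and 10 of the 20575 genes listed in each sample belong to the group, 4 encoding alpha tubulins (TUBA1A 7846, TUBA1B 10376, TUBA1C 84790 and TUBA4A 7277) and 6 encoding beta tubulins (TUBB 203068, TUBB2A 7280, TUBB2B 347733, TUBB3 10381, TUBB4B 10383 and TUBB6 84617). The choice by gene number used no threshold on a measured value. Huh7 is an established human hepatocellular carcinoma line. It was transfected with a control siRNA (siControl), with siRNA against LATS1 (siLATS1) or with siRNA against LATS2 (siLATS2), using RNAiMAX, and RNA was harvested 48 h later. There were 3 groups of 3 samples, all of the parental line, and the labels name no agent other than the siRNA. The study's methods speak of RNA from sorafenib-treated as well as transfected cells, without saying which libraries that covers. By the labels, total RNA was depleted of ribosomal RNA before library preparation, whereas the study's methods also call the sequenced RNA polyadenylated. Each sample held 23548247 to 32193525 counted reads. The study's methods call the replicates biological, and neither they nor the labels say whether these were separate cultures, so every p-value below measures the spread between these samples, which may be technical.

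Microtubules are hollow polymers of alpha-beta tubulin heterodimers. They form the mitotic spindle and the tracks along which dynein and kinesin motors carry phagosomes, autophagosomes and lysosomes, which is why tubulins are counted among the phagosome genes of the KEGG pathway collection. Most cells express several tubulin genes, or isotypes, whose products co-assemble; TUBB3 is best known as the neuronal beta tubulin, TUBB2A and TUBB2B are close copies, and TUBB, TUBB4B, TUBA1B and TUBA1C are broadly expressed. Cells also control tubulin mRNAs after transcription. When free heterodimers accumulate, the factor TTC5 recognises the start of the nascent tubulin chain on the ribosome and, through SCAPER and the CCR4-NOT subunit CNOT11, has the mRNA degraded.

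The stretch read in that process is encoded at the start of each coding sequence. It is shown because all 10 mRNAs carry a version of it, from the GRCh37 sequence of the annotated main transcript, with the first 4 codons in capitals and written 5′ to 3′.
TUBA1A, TUBA1B and TUBA1C: ATGCGTGAGTGCatctcc
TUBA4A: ATGCGTGAATGCatctca
TUBB and TUBB4B: ATGAGGGAAATCgtgcac
TUBB3 and TUBB6: ATGAGGGAGATCgtgcac
TUBB2A: ATGCGCGAGATCgtgcac
TUBB2B: ATGCGTGAGATCgtgcac

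The genes are scattered over chromosomes 2, 6, 9, 12, 16 and 18 (GRCh37). TUBA1B (12:49521565-49525180, minus strand), TUBA1A (12:49578469-49582863, minus strand) and TUBA1C (12:49582519-49668383, plus strand) are neighbours, as are TUBB2A (6:3153731-3157778) and TUBB2B (6:3223558-3231964), both on the minus strand. TUBB (6:30685212-30693315), TUBB3 (16:89987800-90005169), TUBB4B (9:140135739-140138159) and TUBB6 (18:12307668-12344319) are on plus strands, and TUBA4A (2:220114432-220142624) is on a minus strand. Each main transcript has 4 exons.

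Close copies limit what a read can tell. Only reads with 1 place in the genome were kept by the study, and of all 81-base windows along each transcript, the length of the reads, 42.4% were unique in the genome for TUBB2A, 48.7% for TUBB2B, 54.4% for TUBA1B, 71.8% for TUBA1A and 83.5% for TUBA1C. For TUBB, TUBB3 and TUBB4B the share was 91.5% to 95.1%, and for TUBA4A and TUBB6 every window was unique. TUBB2A and TUBB2B share a stretch of 725 identical bases. Exons of TUBB3 coincide over 1584 bases with those of a protein-coding gene annotated on the same strand (ENSG00000198211), so reads of the pair cannot be told apart. Exons of TUBA4A overlap those of STK16, on the opposite strand, over 628 bases. Also on opposite strands, exons of TUBA1A and TUBA1C overlap over 104 bases, and those of TUBB4B and protein-coding FAM166A over 124. Non-coding genes on the opposite strand overlap exons of TUBA1B over 1182 bases (TUBA1B-AS1), of TUBA1C over 666 and of TUBB over 538, and how strand was used in counting is not given in the sources used here.

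As a check of the knockdown, LATS1 mRNA was at 110, 55.2 and 62.9 CPM (counted reads scaled to a common library size and by a trimmed-mean factor per sample) in siControl replicates 1, 2 and 3, at 27.1, 20.1 and 15.6 in siLATS1 and at 54.7, 78.6 and 51.2 in siLATS2. All siLATS1 samples were below all others. The difference between siLATS1 and siControl was -1.78 on the log2(CPM + 1) scale (SE 0.31; limma, Benjamini-Hochberg adjusted p = 0.126). LATS2 was not analysed here, so the siLATS2 label has no such check. The hepatocyte markers fit the label: 12 of 12 were measured, their summed level was 13934 to 23206 CPM in siControl, 14488 to 19106 in siLATS1 and 12430 to 17116 in siLATS2, and AFP alone reached 10032 CPM in siControl 1. Summed markers of other cells were 254 to 437 CPM for fibroblasts, 20.3 to 30.02 for leukocytes and 0.723 to 2.77 for endothelium across the 9 samples. Most of the fibroblast sum was LUM and PDGFRA, and THY1 was at 0 in all samples.

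The tubulin genes differed widely in their mRNA level. Per kilobase of transcript, the mean in siLATS2 was 1015 CPM for TUBA1B, 913 for TUBB, 714 for TUBB4B, 501 for TUBA1C and 315 for TUBA1A (n = 3 each; SD 115, 54.5, 139, 23.9 and 10.0). The remaining genes were well below these, at 78.5 CPM per kilobase for TUBB3, 59.8 for TUBB6, 54.2 for TUBB2A, 44.6 for TUBB2B and 32.3 for TUBA4A (SD 31.0, 7.81, 16.2, 12.8 and 4.55). In that group the ranges of TUBA1B and TUBB overlapped and so did those of each neighbouring pair from TUBB3 down to TUBA4A, whereas TUBB, TUBB4B, TUBA1C and TUBA1A each stood apart from the next gene in the order. The order was the same in siControl, and in siLATS1 TUBB (885 ± 112 CPM per kilobase, SD, n = 3) came before TUBA1B (853 ± 138). Only the unique part of a transcript can give counted reads. The mean of TUBA1B per 1000 unique windows was above that of TUBB in each group. It was 1605 against 913 CPM in siControl, 1648 against 1000 in siLATS1 and 1961 against 1031 in siLATS2. Per 1000 unique windows, TUBB2A was at 135 CPM and TUBB2B at 95.5 in siLATS2, above TUBB3 with 88.0 and TUBB6 with 62.5. In the other groups TUBB2B was just under TUBB3 on this scale, at 72.2 against 75.5 CPM in siControl and at 104 against 107 in siLATS1.

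**Figure D1:**
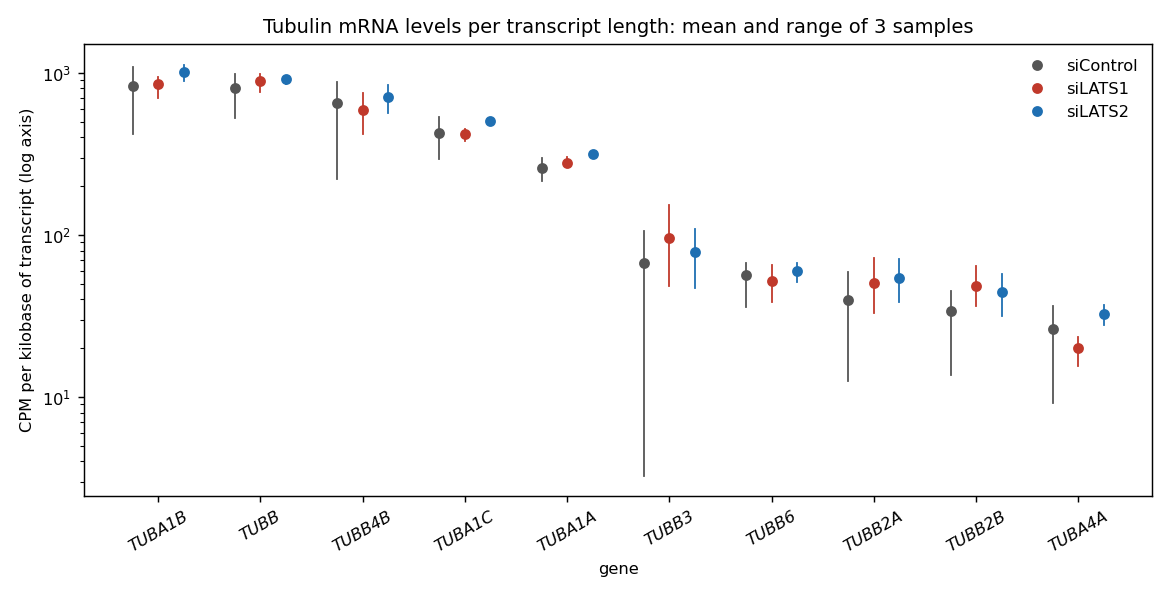
Scaled CPM per kilobase of the main transcript (log axis) for the 10 tubulin genes, ordered by their mean, with points for the mean and lines for the lowest to highest of 3 samples in each siRNA group. The 5 genes on the left lie between 215 and 1124 CPM per kilobase in every sample and the long line of TUBB3 in siControl reaches down to 3.27.

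The main pattern in these genes was between libraries of 1 group. Each of the 10 genes was lowest in siControl replicate 1 of all 9 samples, against 39.6% of the 12901 tested genes. The size of this gap ran from 1.31-fold below the mean of siControl replicates 2 and 3 for TUBA1A to 30.4-fold for TUBB3. Together the tubulins took 0.351% of all counted reads in siControl 1 and 0.579% to 0.817% in the other 8 samples. Within siLATS1 the lowest sample was replicate 1 for all 10 genes, and within siLATS2 it was replicate 2. Having these 3 samples as the lowest of their groups was seen in 30.7% of the tested genes.

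TUBB3, the neuronal isotype, was at 5.58, 160 and 179 CPM in siControl replicates 1, 2 and 3, which rested on 127, 3978 and 4861 reads. It was at 82.6, 143 and 260 CPM in siLATS1 and at 135, 80.6 and 186 in siLATS2. The 3 groups overlapped, and siControl 1 stood far below every other sample. In bulk RNA, fewer cells of a type and less RNA per cell cannot be told apart. Of all tested genes, 0.147% were further below their level in the other siControl samples. TUBB3 went with few other neuronal mRNAs: NEFL, NEFM and RBFOX3 were at 0 in all 9 samples, 9 of 10 neuron markers were listed, and their sum was 32.3 to 56.3 CPM in siControl, 43.7 to 57.3 in siLATS1 and 45.2 to 47.6 in siLATS2, most of it MAP2. Of the 3 neuron markers that could be tested, SNAP25 alone was called, higher in siLATS1 than in either other group. In these comparisons 2.91% and 1.86% of all tested genes were called, and no neuron marker was after adjustment. SNAP25 was at 5.01, 2.05 and 2.62 CPM in siControl, 8.10, 5.47 and 8.07 in siLATS1 and 3.05, 3.35 and 4.20 in siLATS2.

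The close copies TUBB2A and TUBB2B had the same order of samples within each group. TUBB2A was at 20.1, 78.6 and 94.7 CPM in siControl, 53.2, 76.1 and 116 in siLATS1 and 85.9, 62.4 and 115 in siLATS2. TUBB2B was at 26.1, 81.6 and 86.7 CPM in siControl, 70.3, 86.2 and 123 in siLATS1 and 87.3, 60.3 and 109 in siLATS2. Apart from siControl 1, the samples of the 3 groups were intermixed for both genes.

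Of the beta tubulins that make up most of the pool, TUBB was at 1318, 2477 and 2303 CPM in siControl, 1912, 2312 and 2456 in siLATS1 and 2345, 2140 and 2400 in siLATS2. TUBB4B, which is also abundant in ciliated cells, was at 345, 1337 and 1378 CPM in siControl, 654, 941 and 1176 in siLATS1 and 1154, 882 and 1311 in siLATS2. For TUBB4B siControl replicates 2 and 3 were the highest samples of all, while TUBB showed no such order. TUBB6, a less widely used isotype, was at 67.4, 125 and 127 CPM in siControl, 72.8, 97.8 and 122 in siLATS1 and 116, 96.3 and 125 in siLATS2. Here siControl 2 and 3 were again at the top, but narrowly, at 125.4 and 126.7 against 125.1 CPM in siLATS2 3. How many of all genes have siControl 2 and 3 highest was not counted.

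Among the alpha tubulins, TUBA1B was at 684, 1761 and 1609 CPM in siControl, 1130, 1531 and 1502 in siLATS1 and 1669, 1455 and 1829 in siLATS2. TUBA1C was at 829, 1496 and 1257 CPM in siControl, 1063, 1263 and 1230 in siLATS1 and 1454, 1335 and 1450 in siLATS2. For TUBA1C every siLATS1 sample lay below every siLATS2 sample; for TUBA1B the siLATS1 and siLATS2 ranges overlapped. TUBA1A, an isotype prominent in developing neurons, varied least, with 359, 495 and 444 CPM in siControl, 438, 503 and 452 in siLATS1 and 525, 512 and 545 in siLATS2. Its 3 siLATS2 samples were above the other 6.

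TUBA4A, the least abundant isotype per kilobase, was at 18.8, 75.0 and 67.7 CPM in siControl, 31.7, 47.7 and 44.3 in siLATS1 and 65.5, 57.2 and 75.8 in siLATS2. All 3 siLATS1 samples were below all 3 siLATS2 samples, and siControl 1 was below everything else. The siLATS1 samples were also below siControl 2 and 3, as they were for TUBA1B, TUBB4B and TUBB6. The share of all tested genes with that order was not counted.

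**Figure D2:**
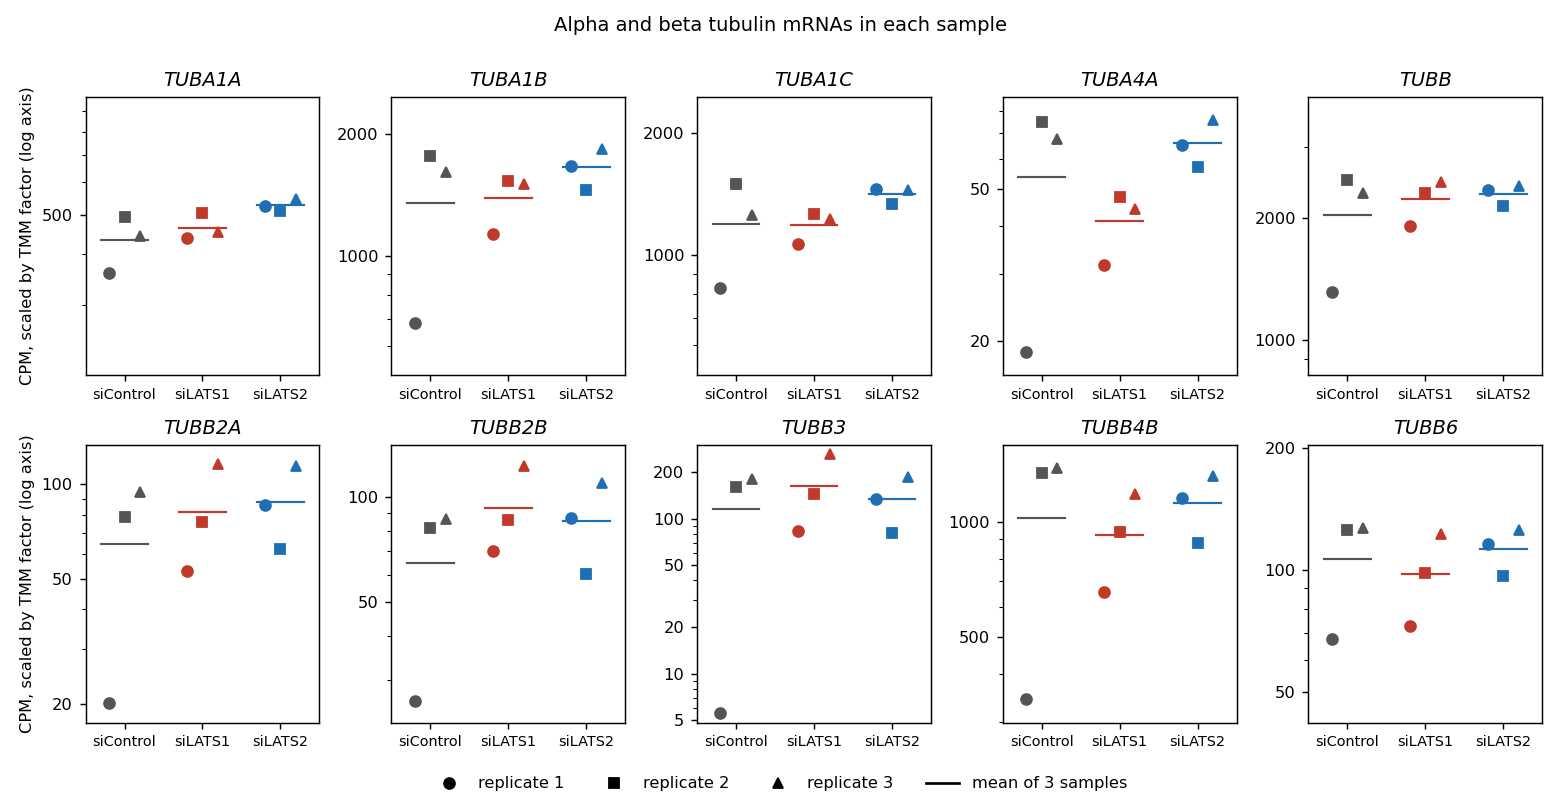
Scaled CPM (log axis, its range differing between panels) of the 10 tubulin genes in each sample; circles, squares and triangles are replicates 1, 2 and 3, grey is siControl, red siLATS1, blue siLATS2, and the line is the mean of 3 samples. In every panel the lowest point is the grey circle, from 5.58 CPM for TUBB3 to 1318 CPM for TUBB.

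With siLATS1 set against siControl, the comparison that asks what loss of LATS1 does to these mRNAs, no tubulin gene was called. A gene was called with an unadjusted p under 0.05 and a difference of at least 0.58 on the log2(CPM + 1) scale (limma over all 9 samples), which held for 2.91% of the tested genes, and for 0.101% of them (13 genes) after Benjamini-Hochberg adjustment. None of the 10 reached even an unadjusted p under 0.05. The differences ran from -0.17 for TUBA4A (95% interval -1.25 to 0.91) to 1.35 for TUBB3 (-1.32 to 4.02), with a median of 0.13 against 0.02 over all tested genes. Group means gave the other sign for 2 genes, TUBA1C and TUBB4B, with 924 ± 262 CPM of TUBB4B in siLATS1 against 1020 ± 585 in siControl (SD, n = 3), where the difference on the log scale was 0.06. In no gene were the groups apart, which they were in 8.48% of all tested genes.

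In siLATS2 against siControl, no tubulin gene was called either, against a background of 0.271% and no gene of the whole table after adjustment in limma, with 110 genes at an unadjusted p under 0.05. All 10 differences were positive, with a median of 0.38 against 0.03 over all tested genes (siControl 1 was the lowest sample in each). TUBA1A was the only one with groups apart, which held for 3.51% of tested genes. Its mean was 527 ± 16.8 CPM in siLATS2 and 433 ± 68.3 in siControl, a difference of 0.30 (SE 0.14; limma adjusted p = 0.95; exact two-sided permutation p = 0.1, the smallest that 3 against 3 samples allow).

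The direct comparison of siLATS1 with siLATS2, which does not use the siControl values for its differences, again called no tubulin gene, against 1.86% of all tested genes. TUBA1A, TUBA1C and TUBA4A were lower in each siLATS1 than in each siLATS2 sample; groups were apart in 12.4% of tested genes. The means were 465 ± 34.4 and 527 ± 16.8 CPM for TUBA1A, 1186 ± 107 and 1413 ± 67.4 for TUBA1C, and 41.2 ± 8.43 and 66.1 ± 9.33 for TUBA4A (exact two-sided permutation p = 0.1 in each case). Summed over the 4 alpha tubulins, the level was 3079 ± 365 CPM in siLATS1 and 3657 ± 274 in siLATS2, while the 6 beta tubulins gave 3585 ± 708 and 3830 ± 470. The ratio of beta to alpha tubulin CPM was 1.16 ± 0.138 in siLATS1, 1.04 ± 0.0512 in siLATS2 and 1.10 ± 0.147 in siControl, where siControl 1 was lowest of all samples with 0.942.

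The fit was repeated without siControl 1, and the calls in siLATS1 against siControl changed. TUBA4A was then lower by 0.81 (SE 0.20; unadjusted p = 0.00275, adjusted p = 0.153, limma) and TUBB4B by 0.61 (SE 0.24; unadjusted p = 0.0347, adjusted p = 0.359, limma), so 2 of 10 were called, against a background of 5.67% in this fit. The median difference of the 10 genes moved from 0.13 to -0.23, and only TUBB2B kept a positive sign. In siLATS2 no gene was called (background 0.536%), and the median moved from 0.38 to -0.06. In siLATS1 against siLATS2 TUBA4A was called, with a difference of -0.68 (SE 0.18; unadjusted p = 0.00403, adjusted p = 0.255, limma; background 2.38%). The difference itself was -0.68 with siControl 1 as well and its SE 0.47; the 3 groups share 1 estimate of the spread. A fit of the 6 knockdown samples alone also called it (unadjusted p = 0.00854, limma; background 2.26%).

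**Figure D3:**
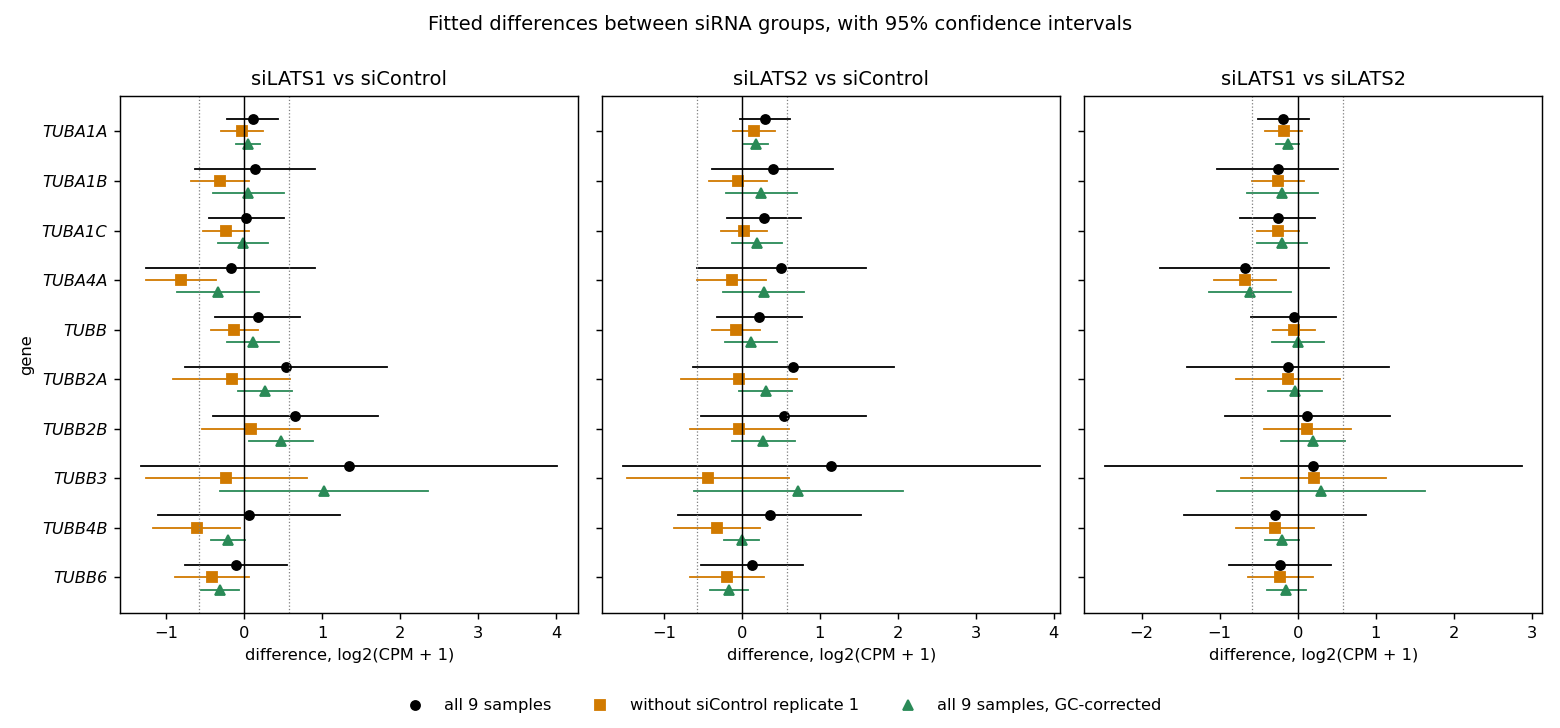
Fitted differences in log2(CPM + 1) between siRNA groups for the 10 tubulin genes, with 95% confidence intervals from limma, for all 9 samples (black circles), without siControl replicate 1 (orange squares) and after GC correction (green triangles); dotted lines mark 0.58 in each direction. In siLATS1 vs siControl the TUBA4A point moves from -0.17 to -0.81 and the TUBB3 point from 1.35 to -0.23 once siControl 1 is left out.

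The distance of siControl 1 from its group mates went with the base composition of the transcripts. Over 11693 tested genes with a known main transcript (90.6% of those tested), siControl 1 minus the mean of siControl 2 and 3 had a median of 0.89 in the quintile of genes lowest in GC content and of -2.01 in the highest quintile, on the log2(CPM + 1) scale. The same order was weaker in siLATS1 1 (0.38 to -0.61) and siLATS2 2 (0.44 to -0.55), the other samples in which every tubulin gene was lowest of its group. Tubulin transcripts have 50.2% (TUBA1C) to 62.2% GC (TUBB3). TUBB2A and TUBB4B, with 59.3% each, were close to the median of their quintile in siControl 1, with -2.05 and -1.97. TUBA1C, TUBA4A and TUBB2B lay lower in theirs, with 3.63%, 6.07% and 9.97% of the genes of their quintiles below them. TUBA1C, with -0.73, was near the upper GC edge of its quintile (44.8% to 50.9%), and the next quintile had a median of -0.73. Of the genes of their quintiles, 19.97% were below TUBA1B, 39.99% below TUBB6 and 42.47% below TUBB. TUBA1A went the other way, with 74.72% of the genes of its quintile below it. TUBB3, with -4.69, was lower than all but 0.812% of the genes in its own quintile. The part of base composition in the differences between groups was not tested beyond the correction that follows.

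**Figure D4:**
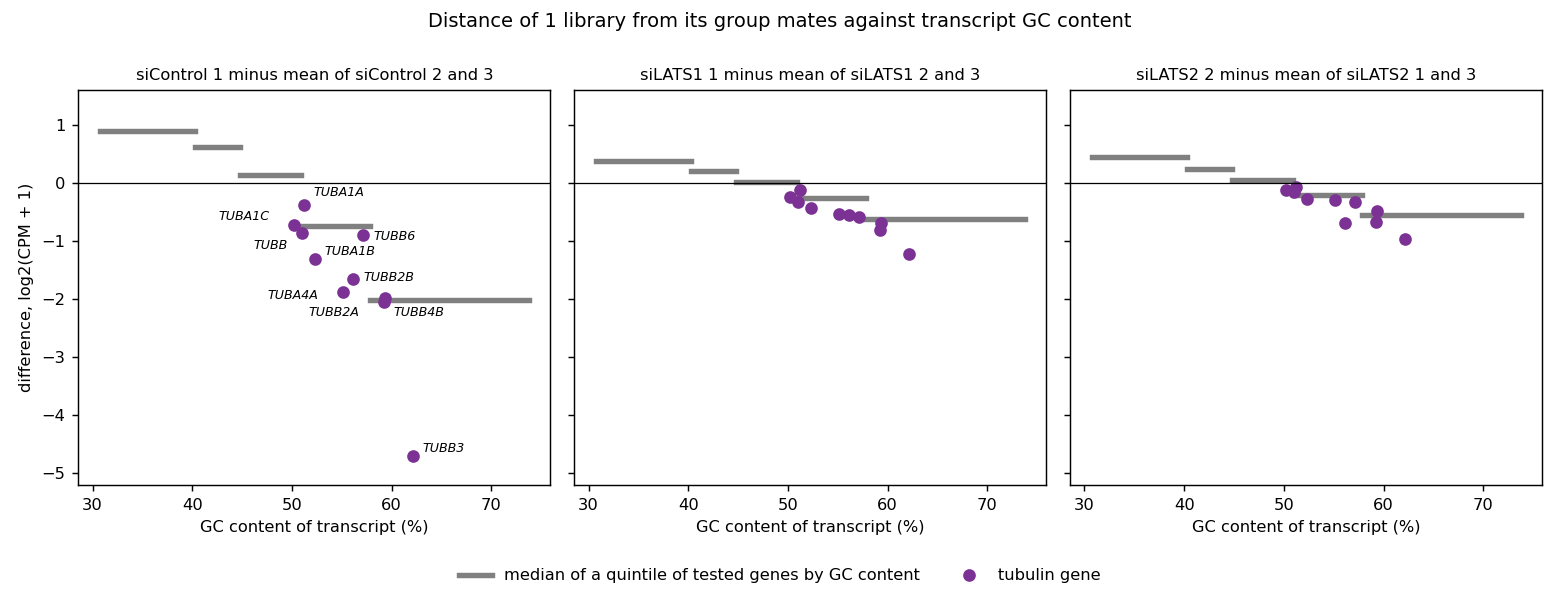
Level in 1 library minus the mean of its group mates, in log2(CPM + 1), against the GC content of the main transcript, for siControl 1, siLATS1 1 and siLATS2 2; grey bars are medians of quintiles of the tested genes, drawn over the GC range of each quintile, and purple points are the 10 tubulin genes. The bars fall from 0.89 to -2.01 in siControl 1, and TUBB3 lies at -4.69.

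A correction for GC content, chosen after this was seen, subtracted from each sample a smooth curve of its deviation against GC content. TUBB3 then stood at 19.9, 117 and 126 CPM in siControl, 106, 143 and 172 in siLATS1 and 112, 93.0 and 133 in siLATS2, so that siControl 1 was still 6.10-fold below its mates. After the correction siControl 1 was below the other 8 samples in 7 tubulin genes, against 25.1% of genes, the exceptions being TUBA1A, TUBB4B and TUBB6. No tubulin gene was called against siControl (background 3.24% for siLATS1 and 0.265% for siLATS2). For siLATS1, TUBB6 (difference -0.31, unadjusted p = 0.0192, limma) and TUBB2B (0.47, unadjusted p = 0.0275, limma) missed only the fold threshold. Both depended on siControl 1. The correction turned it from the lowest into the highest TUBB6 sample, at 137 CPM against 102 and 108 in siControl 2 and 3. For TUBB2B it was the lowest, at 48.9 CPM. With the correction but without siControl 1, the differences were -0.18 for TUBB6 and 0.30 for TUBB2B. For siLATS2, TUBA1A (0.18, unadjusted p = 0.0262, limma) also missed only the fold threshold. Of all 11693 genes, 2096 for siLATS1 and 450 for siLATS2 had an unadjusted p under 0.05. TUBA4A, now at 35.7, 46.8 and 37.2 CPM in siLATS1 and 58.8, 59.6 and 65.0 in siLATS2, was called lower in siLATS1 than in siLATS2 (difference -0.61, SE 0.23; unadjusted p = 0.0263, adjusted p = 0.271, limma; background 2.51%).

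With the GC correction and without siControl 1 together, also chosen after seeing the data, TUBA4A passed the adjusted threshold both against siControl (difference -0.64, SE 0.11; adjusted p = 0.0116, limma) and against siLATS2 (difference -0.61, SE 0.10; adjusted p = 0.0108, limma). It was the only tubulin gene to do so, in comparisons where 3.29% and 1.64% of all genes passed. STK16, which overlaps TUBA4A on the other strand, was at 9.79, 31.2 and 27.7 CPM in siControl, without GC correction. On the same scale it was at 19.8, 23.8 and 31.3 in siLATS1 and 27.9, 21.1 and 28.1 in siLATS2, with overlapping groups. Whether reads of STK16 enter the TUBA4A values was not tested.

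The tubulin genes went up and down together over the samples. Over the 45 pairs of genes, Pearson's r of log2(CPM + 1) across the 9 samples had a median of 0.894 (0.655 to 0.979), and without siControl 1 of 0.717 (-0.04 to 0.989). These are descriptions, as the points share libraries and their order by base composition. The genes most like the summed tubulin level were DHX16, an RNA helicase of splicing (r = 0.998), TRAPPC2L, a subunit of a vesicle tethering complex (0.998), MRPS11, a mitochondrial ribosomal protein (0.998), ARFIP2 (0.997) and RPUSD3 (0.997), over 9 samples; without siControl 1 their r was 0.989 to 0.997. Of all tested genes, 24.4% had an r above 0.9.

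Proximal promoters (250 bases before and 50 after the start, RefSeq, GRCh38.p14, all 10 genes matched) shared few short motifs. CCAAT, the box bound by NF-Y, was found on either strand in 5 of 10 (TUBA1A, TUBA1C, TUBB, TUBB2B and TUBB4B) against 35.7% of 27305 promoters, and GGGCGG, the core of the Sp1 box, in 5 of 10 against 44.6%. GGAATG, a core recognised by the TEAD factors that act with the LATS substrates YAP and TAZ, was found in TUBB4B and TUBB6, against 14.0% of promoters. The bases before the start of the GGAATG promoters are shown, as these factors lie downstream of the silenced kinases, with CCAAT and GGAATG or their reverse complements in capitals, 5′ to 3′ on the plus strand.
TUBB4B, chr9:137241037-137241286: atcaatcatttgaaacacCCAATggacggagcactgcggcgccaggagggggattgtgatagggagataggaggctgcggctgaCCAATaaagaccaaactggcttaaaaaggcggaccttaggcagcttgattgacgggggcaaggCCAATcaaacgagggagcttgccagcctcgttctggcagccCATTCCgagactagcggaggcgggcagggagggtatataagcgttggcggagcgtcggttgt
TUBB6, chr18:12307419-12307668: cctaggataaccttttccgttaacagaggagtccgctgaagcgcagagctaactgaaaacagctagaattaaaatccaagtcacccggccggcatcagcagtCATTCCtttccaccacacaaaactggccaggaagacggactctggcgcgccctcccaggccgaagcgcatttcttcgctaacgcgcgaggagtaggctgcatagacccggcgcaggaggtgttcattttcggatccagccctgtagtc

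Neither gene with GGAATG was called with all 9 samples. A match describes letters in these windows and no binding.

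Of the genes that control tubulin mRNA, TTC5 was at 13.0 ± 2.03 CPM in siControl, 14.0 ± 1.74 in siLATS1 and 14.4 ± 0.676 in siLATS2 (SD, n = 3), and neither it nor SCAPER or CNOT11 was called in any comparison. None of the 6 tested of 12 other tubulin genes (minor alpha and beta isotypes and the gamma, delta and epsilon tubulins), of the 21 folding genes (CCT chaperonin, prefoldin and tubulin cofactors), of 16 tubulin-modifying enzymes or of 35 microtubule-associated genes was called in the 3 comparisons, in which 2.91%, 0.271% and 1.86% of all tested genes were. In lists of this size those shares leave room for few calls or none. Without siControl 1, TTLL12, a relative of the tubulin ligases, was called lower and MAP7D2, a microtubule-binding protein, higher in siLATS1 than in siControl. That fit called 5.67% of all genes in this comparison, and both genes were named after their values were seen. The median difference of the folding genes was -0.13 in siLATS1, 0.05 in siLATS2 and -0.17 between the knockdowns, against 0.019, 0.032 and -0.035 over all tested genes.

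Among 17 tested motor genes KIF5C, a heavy chain of the conventional kinesin that walks on microtubules, was the 1 called, and it was called against siControl in both knockdowns (background 2.91% and 0.271%). It was at 30.3 ± 8.70 CPM in siControl, 49.6 ± 6.70 in siLATS1 and 46.2 ± 6.35 in siLATS2 (SD, n = 3). The differences from siControl were 0.72 for siLATS1 (SE 0.22; adjusted p = 0.535, limma) and 0.62 for siLATS2 (SE 0.22; adjusted p = 0.95, limma), both using the same control samples, and 0.92 and 0.82 without siControl 1. The difference between the knockdowns was 0.10 (SE 0.22).

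Of the other phagosome genes, written down from general knowledge of the pathway, 76 of 94 could be tested. Against siControl, siLATS1 had 3 called higher and 1 lower, where 2.33% and 0.589% of all tested genes were called in these directions. For siLATS2 none was higher and 1 lower (0.217% and 0.0543% of all genes), and siLATS1 against siLATS2 had 2 higher and 1 lower (1.34% and 0.519%). ITGA2, an integrin subunit, was called lower in siLATS1 than in siControl (54.4 ± 15.5 against 95.4 ± 19.6 CPM, difference -0.82, SE 0.28; adjusted p = 0.651, limma). THBS1, the matrix protein thrombospondin, was called lower in siLATS1 than in siLATS2 (578 ± 130 against 1010 ± 73.7 CPM, difference -0.82, SE 0.18; adjusted p = 0.381, limma). TLR2, a bacterial sensor near the detection limit, was called higher there (1.87 ± 0.159 against 0.923 ± 0.274 CPM, difference 0.59, SE 0.14; adjusted p = 0.413, limma). None of these 3 passed the adjusted threshold. Also called, and named after their values were seen, were TAP1 and THBS3, higher in siLATS1 than in siControl, and OLR1, lower in siLATS2. Without siControl 1 the counts against siControl became 3 higher and 4 lower for siLATS1 and 2 lower for siLATS2, and 4 higher and 1 lower between the knockdowns. The shares of all genes called in either direction also rose in that fit, to 5.67%, 0.536% and 2.38%.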

How the data were processed

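The authors mapped 81-base single-end reads to GRCh37 (hg19) with STAR, used only unique hits, assigned these to RefSeq exons by QuasR and deposited 1 CPM value per gene and sample. Genes are listed by Entrez number, 20474 of which matched a RefSeq symbol; 1 empty row per file was dropped. All values were whole multiples of 1 read (tolerance 0.05), which gave the depth, so precision is limited by the number of samples rather than by counting. Library preparation used the TruSeq Stranded total RNA kit with Ribozero Gold.

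CPM were scaled by TMM factors (edgeR 4.0.16), and log2(CPM + 1) was fitted with limma 3.58.1 (R 4.3.3, mean-variance trend, 1 mean per group) over the 12901 genes that reached 1 CPM in 3 or more samples. Fold changes on this scale understate those of low genes. Calls used p under 0.05 with a log2 difference of at least 0.58, the study's own threshold; p-values were adjusted by Benjamini-Hochberg over all tested genes. Single members were also compared by exact two-sided permutation. All members passed the filter. The design, written for CPM, was kept. Alternatives were other scaling, filters and pseudocounts (0.1 and 0.5), no trend, only the 6 samples compared, a replicate block, edgeR and DESeq2 1.42.0 on recovered reads, each sample left out, and, after seeing the data, GC correction (lowess, span 0.3). The scripts were tested on simulated data.

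The members and gene lists were chosen with earlier results of these data known. Outside the 10, the rule named LATS1, TTC5, up to 4 called genes of lowest p per list (1 of them is not reported here), and the 5 genes most correlated with the summed tubulins. Other genes are named as cell markers, as partners of TTC5 or overlapping genes, or after their values were seen.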

Additional observations from a re-analysis of the deposited data

How the results depend on the processing

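With all samples, no tubulin gene was called in siLATS1 or siLATS2 against siControl under any other scaling, filter, pseudocount or tool, nor after GC correction. Between the knockdowns 1 gene, TUBA4A, was called with only the 6 samples compared, after GC correction, and after GC correction without siControl replicate 1, which also called 1 against siControl. Of 390 differences under settings that kept all samples, 377 kept sign and side, 2 became called and 11 changed sign; none of the 11 was called. Correlations of deviations between same-numbered samples ran from -0.87 to 0.92. They cannot tell whether the replicate numbers pair the samples, as the libraries also differed by base composition. The replicate block called 400, 46 and 256 genes (0 after adjustment for siLATS1) and no tubulin gene. Levels in CPM as deposited stayed within 1 SD.

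For siLATS1, genes past the adjusted threshold, 13 in the fit reported, numbered 8 with at least 10 reads in every sample, 0 with only the 6 samples compared, 5 with edgeR, 166 with DESeq2, 162 after GC correction and 384 after GC correction without siControl 1. For siLATS1 against siLATS2, with 0, they numbered 3 without a filter, 1 at pseudocount 0.5, 100 with DESeq2, 84 after GC correction and 191 after GC correction without siControl 1. For siLATS2, genes called, 35 in the fit reported, numbered 72 at pseudocount 0.1, 68 with edgeR, 70 with DESeq2 and 61 after GC correction without siControl 1.

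Leaving out each sample in turn gave 0 to 2 called tubulin genes for siLATS1 and 0 to 1 between the knockdowns, the highest without siControl 1. All called genes numbered 221 (without siLATS1 3) to 730 (without siControl 1) for siLATS1 and 11 (without siLATS2 3) to 69 (without siControl 1) for siLATS2, and adjusted calls 0 to 40 for siLATS1 and 0 to 19 between the knockdowns. The differences that changed sign ranged over these fits as follows. For siLATS1 against siControl they were -0.028 to 0.17 for TUBA1A, -0.30 to 0.34 for TUBA1B, -0.23 to 0.16 for TUBA1C, -0.81 to 0.13 for TUBA4A, -0.12 to 0.30 for TUBB, -0.16 to 0.93 for TUBB2A, -0.23 to 2.16 for TUBB3, -0.61 to 0.39 for TUBB4B and -0.41 to 0.083 for TUBB6. For siLATS2 against siControl they were -0.050 to 0.58 for TUBA1B, -0.13 to 0.79 for TUBA4A, -0.075 to 0.33 for TUBB, -0.036 to 1.06 for TUBB2A, -0.030 to 0.82 for TUBB2B, -0.43 to 1.96 for TUBB3, -0.32 to 0.68 for TUBB4B and -0.19 to 0.27 for TUBB6. For siLATS1 against siLATS2 they were -0.12 to 0.046 for TUBB, -0.40 to 0.13 for TUBB2A, -0.10 to 0.31 for TUBB2B and -0.21 to 0.60 for TUBB3.

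With edgeR the sign changed to -0.010 for TUBA1B, -0.052 for TUBA1C, -0.20 for TUBB4B in siLATS1 against siControl. With DESeq2 the sign changed to -0.012 for TUBA1C, -0.15 for TUBB4B in siLATS1 against siControl. Without a scaling factor the sign changed to 0.025 for TUBB in siLATS1 against siLATS2. After GC correction the sign changed to -0.012 for TUBA1C, -0.20 for TUBB4B in siLATS1 against siControl, and to -0.0015 for TUBB4B, -0.16 for TUBB6 in siLATS2 against siControl, and to 0.0031 for TUBB in siLATS1 against siLATS2. After GC correction without siControl 1 the sign changed to -0.22 for TUBA1B, -0.19 for TUBA1C, -0.066 for TUBB, -0.30 for TUBB4B in siLATS1 against siControl, and to -0.015 for TUBA1B, -0.027 for TUBA4A, -0.068 for TUBB, -0.12 for TUBB3, -0.095 for TUBB4B, -0.031 for TUBB6 in siLATS2 against siControl, and to 0.0021 for TUBB in siLATS1 against siLATS2.

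The cause of these shifts was not tested. Counting error was small for all members but TUBB3 in siControl 1 (127 reads), while 3 samples a group left wide intervals.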
